A study of Mus musculus with 4 samples.

Results

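The ATF4 programme is described here through 37 genes: stress regulators around the transcription factor Atf4, amino acid transporters, enzymes of serine synthesis and one-carbon metabolism, other enzymes of amino acid metabolism, and the ATF4-linked genes Stc2 and Vldlr. Each gene was taken from the 1 array row that names it alone, or from its brightest such row. Of the 37 genes, 36 had a row of their own and Pycr1 had none. A total of 33 were bright enough to be tested, among 10699 tested genes and 19752 genes with a row of their own, while Nupr1, Slc7a11 and Vldlr lay on dim rows, at or under the array median everywhere. The RNA came from CD4+ T cells of the spleens of male C57BL/6 mice, 6 weeks old and with no genetic change named, that had been enriched by removal of other cells and stimulated for 48 h with beads against CD3 and CD28. The samples were 2 arrays of such cells without interferon (baseline), 1 array after 2 h and 1 array after 8 h of interferon alpha (IFNa) at 100 U/ml. Every group, baseline included, was bead-activated. For the IFNa samples, a note on preparation speaks of JAK inhibitors as present or absent, whereas their other labels name IFNa alone.

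As background, the ATF4 programme is a response to amino acid shortage and to other stresses. Kinases that sense these conditions phosphorylate the translation factor eIF2, which lowers protein synthesis in general but favours translation of the Atf4 messenger. The Atf4 protein, often paired with a C/EBP factor, then activates genes for amino acid uptake, amino acid synthesis and transfer RNA charging. In activated T cells the same transporters and enzymes are known to support growth, and amino acid uptake and one-carbon metabolism are also fed by signals through mTORC1 and Myc.

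Untreated cells cultured for a further 2 h or 8 h were not analysed here, and the effects of IFNa and of culture time cannot be told apart. Differences were tested with limma on the log2 scale over all 10699 genes, and a gene was called where its adjusted p lay under 0.05. Only the baseline pair gave a measure of spread, and nothing in the labels says whether they came from separate mice or cultures, so the p-values measure the spread between these 2 samples, which may be technical. The test takes each single IFNa array to vary as the baseline pair does. In bulk RNA, fewer cells of a type and less RNA per cell cannot be told apart. Over all tested genes the 2 h array differed from baseline by a median of 0.06 as deposited, −0.01 under quantile normalization and 0.15 once arrays were centred. For the 8 h array these medians were −0.16, 0.00 and −0.24. All 8 listed markers of CD4 T cells were above the filter, Cd4 stood at 12.23 at 2 h and 12.36 at 8 h against 11.66 and 12.43 in the baseline pair (log2), and none of the 18 tested markers of CD4 T cells or other cell types was called in any comparison. Of 26 measured markers of other cell types 16 were dim. Those of B cells summed to 2929 at 8 h, against 2270 and 2295 at baseline (linear intensity), and the part of such cells in the results below was not tested.

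At 8 h of IFNa some enzymes and transporters of the programme had fallen relative to baseline. Of the 33 tested genes 13 fell and none rose, where 3.35% of all tested genes fell and 0.654% rose. The genes were chosen with earlier results of these data known, so this is not a neutral comparison. The genes that fell were 6 of 7 enzymes of general amino acid metabolism, 3 of 8 enzymes of serine synthesis and one-carbon metabolism, 3 of 9 transporters, and Stc2. Of the 8 stress regulators none was called in limma, which for 8 genes is close to the 3.35% share of all tested genes. Atf4 (−0.82, adjusted p = 0.0622) and Chac1 (−0.84, adjusted p = 0.0615) missed the threshold with differences near the transporter median. The median difference was −1.36 for the general amino acid enzymes, −0.82 for the one-carbon enzymes, −0.83 for the transporters and −0.17 for the stress regulators, beside −0.16 for all tested genes. The adjusted p of the 13 genes ran from 0.00863 for Gpt2 to 0.0490 for Shmt2. Differences between the roles were not tested.

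**Figure D1:**
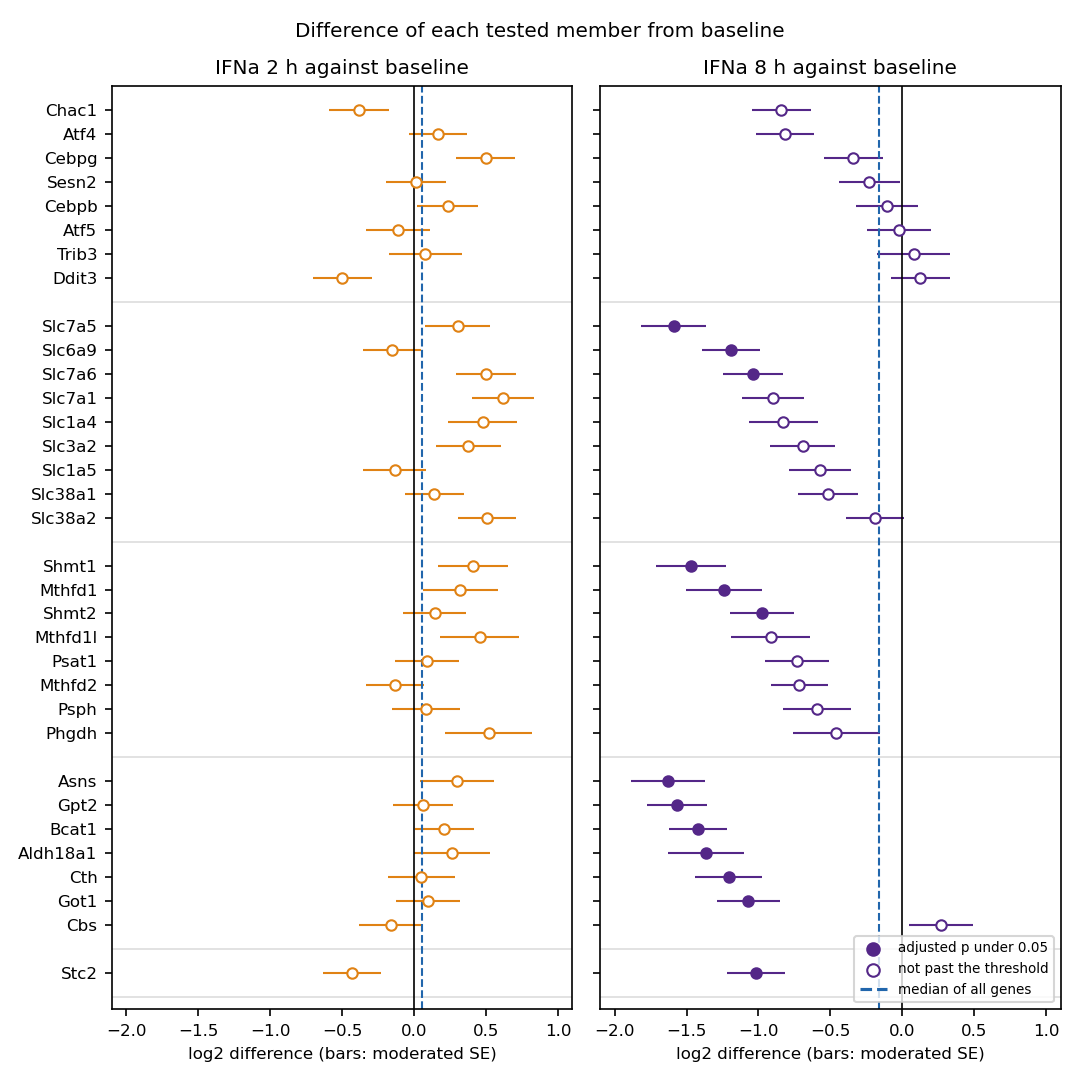
Log2 difference of each tested gene from baseline, at 2 h (left) and 8 h (right) of IFNa, grouped by role from top to bottom (stress regulators, transporters, serine and one-carbon enzymes, other amino acid enzymes, Stc2). Bars are moderated standard errors, filled points passed an adjusted p of 0.05 in limma and the dashed line is the median of all tested genes; no point is filled at 2 h and 13 are filled at 8 h, all to the left of zero.

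The brightness of the genes and the choice of baseline array moved with this result. Of the 33 genes 28 lay below both baseline arrays at 8 h, where 55.9% of all tested genes did, and 2 lay above both, where 24.4% did. They were also higher in baseline 2 than in baseline 1 in 28 of 33 cases (67.5% of all tested genes), by a median of 0.26 against 0.10 over all tested genes. At least 2-fold lower values at 8 h were found for 12 of the 33 genes (2.6% of all) and at least 2-fold higher values for none (0.57% of all); the lower count was 16 without baseline replicate 1 (4.27% of all) and 8 without baseline replicate 2 (2.24% of all). In 4 bins of mean level with equal numbers of tested genes, from dim to bright, 2 of 7, 1 of 7, 5 of 7 and 5 of 12 of the genes fell, where 1.87%, 4.19%, 4.67% and 2.65% of all tested genes did. In these bins the median 8 h difference of all tested genes was 0.11, −0.26, −0.28 and −0.12. That of the 33 genes was −0.11, −0.59, −1.04 and −0.82. All 13 genes stayed called after quantile normalization, where 20 of the 33 fell (8.41% of all tested genes fell and 6.20% rose), and with centred arrays, where 18 did (6.77% of all fell). With no filter on dim rows 6 fell (Slc7a5, Slc6a9, Shmt1, Asns, Gpt2 and Bcat1). With every row of the array in the test limma called none of the genes (lowest adjusted p 0.294). At an unadjusted p under 0.05, 21 of 36 were lower there. In the main fit 2636 of all 10699 tested genes passed that level at 8 h in either direction. The shares of all genes under these 2 settings are not given here.

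Among the stress regulators, Atf4 itself stood at 9.20 and 9.27 at baseline, 9.40 after 2 h and 8.42 after 8 h (log2 level). The 8 h array was the low one and the other 3 lay within a narrow band. The difference at 8 h was −0.82 (SE 0.20, adjusted p = 0.0622), which did not pass. After quantile normalization it was −0.59 with an adjusted p of 0.0470, and with centred arrays it also passed. Chac1, an enzyme that degrades glutathione, was at 7.98 at 8 h against 8.74 and 8.91 at baseline, a difference of −0.84 (SE 0.21, adjusted p = 0.0615) that passed under the same 2 scalings. Its 2 h value of 8.44 also lay under both baseline arrays.

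Ddit3, which encodes the stress factor CHOP, followed another order. It was at 9.19 and 9.05 at baseline, 8.62 after 2 h and 9.25 after 8 h, so that the 2 h array was the low one and the 8 h array lay above both baseline arrays. Neither difference passed (−0.50, SE 0.20, adjusted p = 0.390 at 2 h; 0.13, SE 0.20, adjusted p = 0.735 at 8 h). Cebpg, a dimer partner of Atf4, had the opposite order, with 8.67 and 8.80 at baseline, 9.23 after 2 h and 8.39 after 8 h, and differences of 0.50 (SE 0.20, adjusted p = 0.390) and −0.34 (SE 0.20, adjusted p = 0.328). Cebpb, a related C/EBP factor, stood at 8.00 at 8 h against 7.99 and 8.22 at baseline.

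The remaining regulators lay close to their baseline levels. Trib3, a pseudokinase that feeds back on Atf4, was at 8.10 on both IFNa arrays, between its baseline values of 7.76 and 8.28. Atf5, a factor related to Atf4, was at 7.74 at 2 h and 7.83 at 8 h, also between its baseline values of 8.01 and 7.69. Sesn2, a leucine sensor that restrains mTORC1, differed by −0.23 at 8 h (SE 0.21, adjusted p = 0.521), and its sign turned to 0.05 after quantile normalization. Nupr1, a small stress-induced nuclear protein, was dim, at 7.45 at 2 h and 7.51 at 8 h against 7.58 and 7.46 at baseline, and was not tested.

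**Figure D2:**
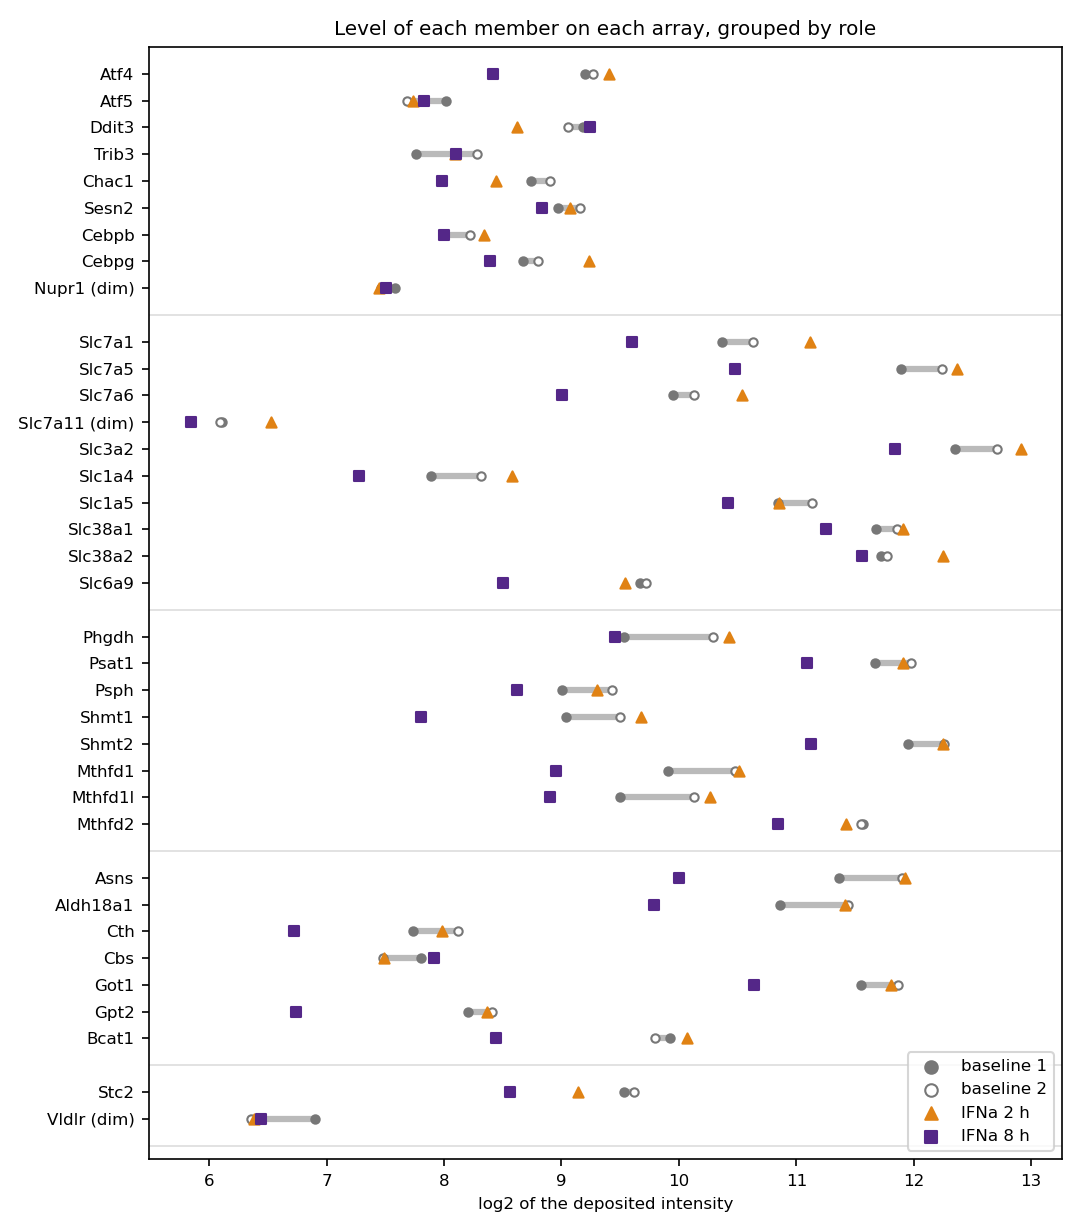
Log2 of the deposited intensity of the 36 genes with a row of their own, on each of the 4 arrays: filled and open circles are baseline 1 and 2 (joined by a bar), triangles 2 h and squares 8 h of IFNa. Squares lie left of both circles for most transporters and enzymes, and within or near the baseline bar for Atf5, Trib3, Cebpb and Ddit3; levels of different genes are not comparable, since probes differ.

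Of the transporters, Slc7a5, Slc7a6 and Slc6a9 fell at 8 h. Slc7a5 carries leucine and other large neutral amino acids, and stood at 11.89 and 12.24 at baseline, 12.37 after 2 h and 10.48 after 8 h. The 8 h array lay more than 1 log2 unit under every other array, which gave a 3.01-fold lower level than at baseline (log2 difference −1.59, SE 0.23, adjusted p = 0.0113). Slc7a6, which exchanges cationic for neutral amino acids, had 9.95 and 10.13 at baseline, 10.54 after 2 h and 9.003 after 8 h (8 h difference −1.04, SE 0.21, adjusted p = 0.0366). Slc6a9, a glycine transporter, had 9.67 and 9.72 at baseline, 9.54 after 2 h and 8.50 after 8 h (8 h difference −1.19, SE 0.20, adjusted p = 0.0221).

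Slc3a2 encodes the heavy chain that pairs with Slc7a5, Slc7a6 and Slc7a11 at the membrane. It had 12.35 and 12.71 at baseline, 12.91 after 2 h and 11.84 after 8 h. Its 8 h value was the lowest of the 4, but the difference of −0.69 (SE 0.23, adjusted p = 0.122) did not pass. Slc7a1, the main arginine carrier of many cells, had 10.37 and 10.63 at baseline, 11.12 after 2 h and 9.60 after 8 h (8 h difference −0.90, SE 0.22, adjusted p = 0.0573), and Slc1a4, which carries alanine, serine and cysteine, had 7.89 and 8.31 at baseline, 8.58 after 2 h and 7.28 after 8 h (−0.83, SE 0.24, adjusted p = 0.0913). The 8 h value of Slc1a4 lay under that array's median of 7.64. After quantile normalization Slc3a2, Slc7a1 and Slc1a4 passed, with adjusted p of 0.0345, 0.0261 and 0.00197. With centred arrays Slc7a1 and Slc1a4 passed (0.0176 and 0.0309) and Slc3a2 did not (0.0807).

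Slc1a5, Slc38a1 and Slc38a2, which carry glutamine and other neutral amino acids with sodium, were not called. Slc1a5 stood at 10.41 at 8 h against 10.84 and 11.13 at baseline (difference −0.57, SE 0.22, adjusted p = 0.163). Slc38a1 was at 11.25 against 11.68 and 11.86 (−0.52, SE 0.21, adjusted p = 0.177), although its dimmer row gave −1.09, about as low as the called transporters. Slc38a2, which is regulated by amino acid supply, was at 11.56 against 11.72 and 11.77 (−0.19, SE 0.20, adjusted p = 0.585). Each of the 9 tested transporters was below both baseline arrays at 8 h. The cystine carrier Slc7a11, which was dim and untested, was also lowest there, at 6.11 and 6.09 at baseline, 6.52 after 2 h and 5.84 after 8 h.

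None of the enzymes of serine synthesis passed at 8 h. Phgdh, the first enzyme of serine synthesis from glucose, had 9.54 and 10.29 at baseline, 10.43 after 2 h and 9.45 after 8 h. The baseline arrays differed by 0.75, so the 8 h difference of −0.46 (SE 0.30, adjusted p = 0.370) was smaller than the gap between them. Psat1, the next enzyme, was at 11.09 at 8 h against 11.67 and 11.98 at baseline (−0.73, SE 0.22, adjusted p = 0.101; adjusted p = 0.0390 after quantile normalization and 0.0624 with centred arrays), and Psph, the last, at 8.62 against 9.01 and 9.43 (−0.59, SE 0.24, adjusted p = 0.174).

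The enzymes that turn serine into glycine and one-carbon units included 3 genes that fell. Shmt1, the cytosolic serine hydroxymethyltransferase, had 9.04 and 9.50 at baseline, 9.68 after 2 h and 7.80 after 8 h, 2.77-fold lower at 8 h than at baseline (log2 difference −1.47, SE 0.24, adjusted p = 0.0202). Its mitochondrial counterpart Shmt2 had 11.95 and 12.25 at baseline, 12.25 after 2 h and 11.13 after 8 h (−0.97, SE 0.22, adjusted p = 0.0490), just under the threshold. Both were clearly separated from the other 3 arrays at 8 h. Mthfd1, the cytosolic folate enzyme, had 9.90 and 10.48 at baseline, 10.51 after 2 h and 8.95 after 8 h (−1.24, SE 0.26, adjusted p = 0.0418).

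The mitochondrial folate enzymes did not pass. Mthfd1l, which releases formate, was at 8.90 at 8 h against 9.50 and 10.12 at baseline (−0.91, SE 0.27, adjusted p = 0.0992; adjusted p = 0.0411 after quantile normalization and 0.0151 with centred arrays). Mthfd2, the dehydrogenase of the mitochondrial arm, had 11.57 and 11.55 at baseline, 11.42 after 2 h and 10.84 after 8 h (−0.72, SE 0.20, adjusted p = 0.0871). Whether cytosolic and mitochondrial enzymes differ from each other was not tested.

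Of the other enzymes of amino acid metabolism, all but Cbs fell. Asns, which makes asparagine from aspartate and glutamine, had 11.36 and 11.90 at baseline, 11.93 after 2 h and 10.003 after 8 h. The 8 h array was more than 1 log2 unit below each of the others, and the gene was 3.09-fold lower than at baseline (log2 difference −1.63, SE 0.26, adjusted p = 0.0174). Gpt2, the mitochondrial alanine aminotransferase, had 8.205 and 8.41 at baseline, 8.37 after 2 h and 6.74 after 8 h, 2.96-fold lower as measured (−1.56, SE 0.21, adjusted p = 0.00863). Its 8 h value lay under that array's median of 7.64, where folds can be understated, and the call held with no filter on dim rows (adjusted p = 0.0201). Bcat1, the cytosolic aminotransferase of branched-chain amino acids, had 9.93 and 9.79 at baseline, 10.07 after 2 h and 8.44 after 8 h (−1.42, SE 0.20, adjusted p = 0.0120). In Gpt2 and Bcat1 the baseline and 2 h arrays lay close together, so the 8 h array alone stood apart.

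Aldh18a1, which starts proline synthesis from glutamate, had 10.86 and 11.44 at baseline, 11.41 after 2 h and 9.79 after 8 h (8 h difference −1.36, SE 0.27, adjusted p = 0.0333). Got1, the cytosolic aspartate aminotransferase, had 11.55 and 11.87 at baseline, 11.81 after 2 h and 10.64 after 8 h (−1.07, SE 0.22, adjusted p = 0.0395). Cth and Cbs are the transsulfuration enzymes, which make cysteine from homocysteine. Cth fell, with 7.74 and 8.12 at baseline, 7.98 after 2 h and 6.72 after 8 h (−1.21, SE 0.23, adjusted p = 0.0318), although its 8 h value lay under that array's median of 7.64 and the call was lost with no filter on dim rows (adjusted p = 0.0691). Cbs had 7.81 and 7.48 at baseline, 7.49 after 2 h and 7.91 after 8 h (0.27, SE 0.22, adjusted p = 0.479). Cbs was the 1 tested enzyme that lay above both baseline arrays at 8 h.

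Of the remaining ATF4-linked genes, Stc2, which encodes a secreted glycoprotein, had 9.53 and 9.62 at baseline, 9.14 after 2 h and 8.56 after 8 h. It was lower than both baseline arrays at each time and fell at 8 h (−1.02, SE 0.20, adjusted p = 0.0359). Vldlr, a lipoprotein receptor, was dim, at 6.38 at 2 h and 6.44 at 8 h against 6.90 and 6.36 at baseline, and was not tested.

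**Figure D3:**
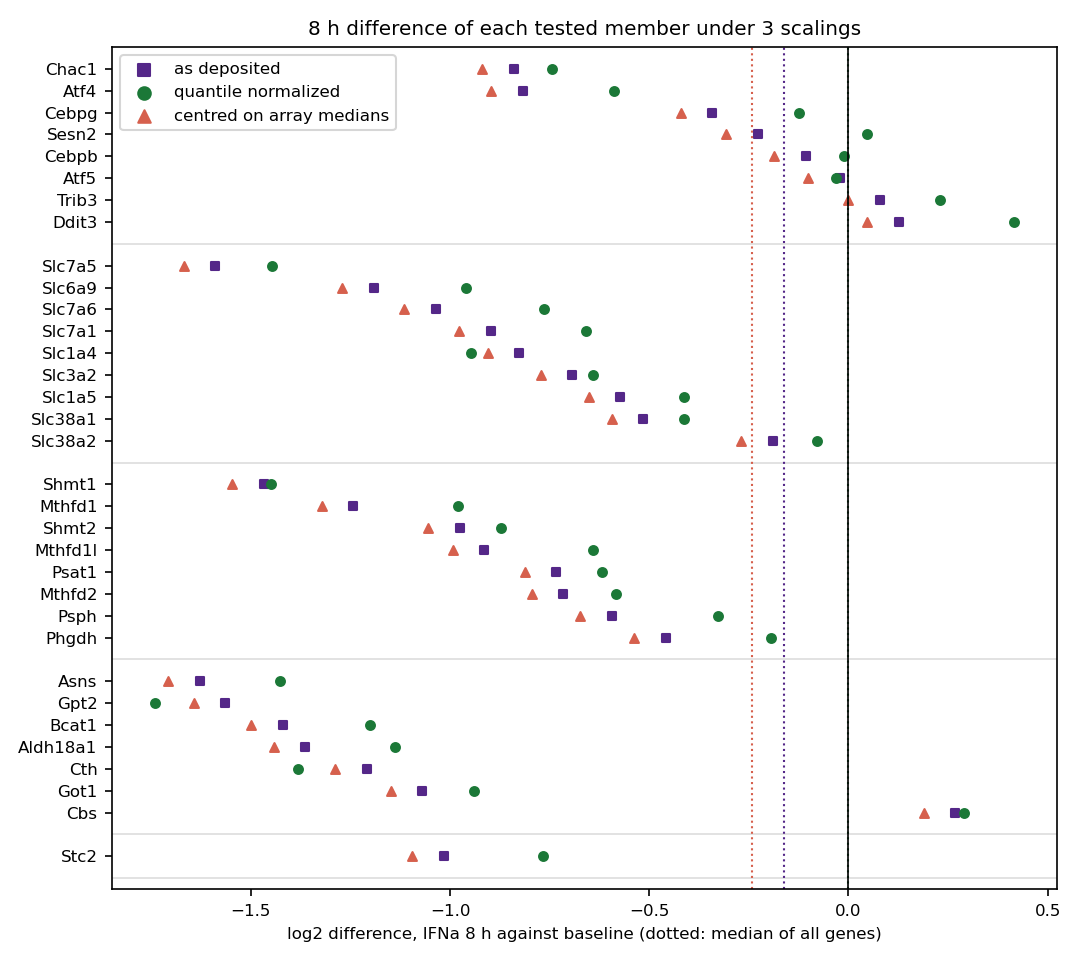
Log2 difference at 8 h of IFNa from baseline for each tested gene, from the deposited values (squares), after quantile normalization (circles) and with arrays centred on their medians (triangles); dotted lines are the median of all tested genes under each scaling. Genes called lower from the deposited values stay left of zero and of the dotted lines under each scaling, while Sesn2 lies left of zero in 2 of them and right of it after quantile normalization.

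The composite element that Atf4 binds with C/EBP factors was sought in promoters of the RefSeq table for GRCm38.p6, which run from 250 bases before to 50 bases after the start of transcription. The letters searched were TGATGNAA, on both strands. They were found for 9 of the 33 genes present in the table (27.3%), and for 4.51% of all 27025 genes in it. The 9 genes were Trib3, Chac1, Nupr1, Slc7a11, Slc1a4, Asns, Pycr1, Got1 and Vldlr. Slc7a5, Slc1a5, Slc38a1 and Cth were absent from the promoter table and were not searched. None of the serine and one-carbon enzymes held the letters in this window. A match is a description of the sequence and not evidence of binding. The 28 bases around the element are shown for tested enzymes, transporters and stress regulators that hold it, so that genes that fell can be set beside genes that did not, with the element in capitals and written on the strand that reads TGATGNAA.
Asns: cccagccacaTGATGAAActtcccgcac
Got1: gaggcttgtaTGATGCAAccaatgcaat
Slc1a4: aggctggagaTGATGCAAcgcaggaggc
Chac1: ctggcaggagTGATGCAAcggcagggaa
Trib3: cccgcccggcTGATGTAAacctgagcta

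These windows lie at chr6:7693215-7693242 (minus strand) for Asns, chr19:43524690-43524717 (plus) for Got1, chr11:20332700-20332727 (plus) for Slc1a4, chr2:119351039-119351066 (minus) for Chac1 and chr2:152344029-152344056 (plus) for Trib3. Counted along the gene, the upstream edge of the element lies 23 bases before the start in Asns, 102 in Got1, 4 in Slc1a4 and 193 in Chac1. In Trib3 that edge is at base 15 of the transcribed part. The element in Slc1a4 therefore runs across the start. The letters TGATGNAA read on the strand of the gene in Asns and on the opposite strand in Got1, Slc1a4, Chac1 and Trib3. Asns and Got1 fell at 8 h, Slc1a4 and Chac1 were lower without passing, and Trib3 was level, so genes with the letters in this window were found in each of these outcomes. Conversely, every other gene of the promoter table that fell at 8 h had no match in these windows, which says nothing of elements elsewhere. These genes were Gpt2, Bcat1, Aldh18a1, Shmt1, Shmt2, Mthfd1, Slc7a6, Slc6a9 and Stc2. The 250 bases upstream of Asns, which fell 3.09-fold, are shown whole with the element in capitals (chr6:7693210-7693459, minus strand).
Asns upstream: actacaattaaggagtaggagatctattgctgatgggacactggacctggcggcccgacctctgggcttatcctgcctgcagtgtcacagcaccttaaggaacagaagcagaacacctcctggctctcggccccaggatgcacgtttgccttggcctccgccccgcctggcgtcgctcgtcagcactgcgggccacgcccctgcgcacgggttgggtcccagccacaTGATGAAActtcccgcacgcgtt

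Other elements were found at shares near those of all genes. The E-box bound by Myc, CACGTG, was found for 3 of the 33 genes (9.09%; 8.09% of all genes in the table), namely Nupr1, Aldh18a1 and Cbs. The core of the interferon-stimulated response element, GAAANNGAAA on either strand, was found for 1 of the 33, Vldlr (3.03%; 3.99% of all genes).

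At 2 h of IFNa none of the 33 genes was called in either direction by limma, where 1.09% of all tested genes rose and 0.00935% fell. At an unadjusted p under 0.05 in limma, 4 were higher and 1 lower, where 1298 of all 10699 tested genes passed that level in either direction. The median difference was 0.14, beside 0.06 for all tested genes, and it was 0.38 for the transporters, 0.23 for the one-carbon enzymes, 0.10 for the other amino acid enzymes and 0.04 for the stress regulators. Of the 9 transporters 7 lay above both baseline arrays at 2 h, where 44.5% of all tested genes did. The largest difference among them was that of Slc7a1, 11.12 at 2 h against 10.37 and 10.63 at baseline (0.62, SE 0.22, adjusted p = 0.317). Slc38a2 was at 12.25 against 11.72 and 11.77 (0.50, SE 0.20, adjusted p = 0.382). Phgdh had the largest difference of the one-carbon group, 10.43 against 9.54 and 10.29 (0.52, SE 0.30, adjusted p = 0.521), a gap that baseline 2 nearly closed. None of the 33 genes differed by 2-fold at 2 h, where 1.77% of all tested genes were at least 2-fold higher and 0.0654% at least 2-fold lower.

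Between the IFNa arrays, 17 of the 33 genes were lower at 8 h than at 2 h and none was higher, where 10.8% of all tested genes were lower and 1.46% higher. They were 6 of 9 transporters, 4 of 8 one-carbon enzymes, 6 of 7 other amino acid enzymes and, of the 8 stress regulators, Atf4 alone. From the deposited values Asns differed most, at 10.003 at 8 h against 11.93 at 2 h (log2 difference −1.93, SE 0.30, adjusted p = 0.0130). Slc7a5 followed, at 10.48 against 12.37 (−1.89, SE 0.26, adjusted p = 0.00973), and then Shmt1, at 7.80 against 9.68 (−1.88, SE 0.28, adjusted p = 0.0117). After quantile normalization the order was Gpt2 (−1.77), Shmt1 (−1.72), Slc7a5 (−1.65) and Asns (−1.62).

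Slc7a1, Slc3a2, Slc1a4 and Mthfd1l, which were not called against baseline, passed here. With no filter on dim rows only Slc7a1 kept its call among these. Slc1a4 lay under the array median at 8 h. Slc7a1 was 2.85-fold lower at 8 h than at 2 h (log2 difference −1.51, SE 0.25, adjusted p = 0.0146), Slc1a4 2.46-fold lower (−1.30, SE 0.27, adjusted p = 0.0263), Mthfd1l 2.58-fold lower (−1.37, SE 0.32, adjusted p = 0.0331) and Slc3a2 2.10-fold lower (−1.07, SE 0.26, adjusted p = 0.0381). Atf4 was at 8.42 at 8 h against 9.40 at 2 h (−0.99, SE 0.23, adjusted p = 0.0349), a call that was lost after quantile normalization (−0.63, adjusted p = 0.0516). The Atf4 call was also lost with no filter on dim rows. Ddit3 stood at 9.25 at 8 h against 8.62 at 2 h (0.63, SE 0.24, adjusted p = 0.1003), and it passed as higher after quantile normalization (0.98, adjusted p = 0.00325). In 15 of the 33 genes the 2 h array lay above and the 8 h array below both baseline arrays, where 28.6% of all tested genes had that order. The comparison shares the 8 h array with that against baseline, so its calls are not independent of those above.

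The genes whose profile over the 4 arrays was nearest to that of Atf4, by Euclidean distance after centring each gene on its mean, were Cep43 (distance 0.012), Mios (0.024) and Rsl1d1 (0.032). Mios, a component of the amino acid sensing complex GATOR2, had 8.43 and 8.51 at baseline, 8.65 after 2 h and 7.68 after 8 h. With 4 arrays, such likeness is a description only.

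Other genes of the pathway were read from lists chosen with earlier results of these data known. Aminoacyl-tRNA synthetases, which charge transfer RNAs with amino acids and many of which are known ATF4 targets, included 8 genes that fell at 8 h of 18 tested and none that rose, where 3.35% of all tested genes fell and 0.654% rose. Their median was −0.80. Tars was at 8.13 at 8 h against 9.55 and 9.74 at baseline (−1.51, SE 0.21, adjusted p = 0.00983), Yars at 8.54 against 9.74 and 10.10 (−1.38, SE 0.23, adjusted p = 0.0202) and Eprs at 9.41 against 10.52 and 10.64 (−1.17, SE 0.20, adjusted p = 0.0234). Wars, an interferon-responsive synthetase, stood at 10.47 at 8 h against 10.49 and 10.92 at baseline (−0.24, adjusted p = 0.562) and was among the 10 not called. At 2 h none of the 18 was called.

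Among 16 tested genes for the eIF2 kinases, eIF2 and its phosphatase, the kinase Eif2ak2 (PKR), which senses double-stranded RNA and is interferon-induced, was the 1 gene that rose. It was at 10.71 at 2 h against 8.40 and 8.36 at baseline (2.33, SE 0.20, adjusted p = 0.00118), and at 9.90 at 8 h (1.52, SE 0.20, adjusted p = 0.00824). The amino acid sensing kinase Eif2ak4 (GCN2) fell at 8 h, at 8.22 against 9.21 and 9.23 (−1.003, SE 0.20, adjusted p = 0.0366), as did Eif2b3, a subunit of the exchange factor of eIF2 (−1.20, SE 0.20, adjusted p = 0.0219). Eif2ak3 (PERK), the kinase of the endoplasmic reticulum, stood at −0.39 at 8 h (adjusted p = 0.278). The other 12 genes were not called at either time against baseline. Of all tested genes 3.35% fell and 0.654% rose at 8 h, and 1.09% rose at 2 h.

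Of 18 other reported ATF4 targets, Xpot, a transfer RNA exporter (−1.60, SE 0.25, adjusted p = 0.0174), the stress factor Atf3 (−1.28, SE 0.24, adjusted p = 0.0288) and the growth factor Vegfa (−1.24, SE 0.21, adjusted p = 0.0227) fell at 8 h, and the median was −0.23. Atf3 had the widest course, with 8.61 and 9.03 at baseline, 10.08 after 2 h and 7.54 after 8 h, although its 2 h difference of 1.26 (SE 0.24, adjusted p = 0.0517) did not pass and its 8 h value lay under the array median. Of 16 other amino acid transporters 2 fell, the cationic carrier Slc7a3 (−1.24, SE 0.20, adjusted p = 0.0194) and the mitochondrial aspartate and glutamate carrier Slc25a13 (−1.03, SE 0.20, adjusted p = 0.0338), with a median of −0.06. A further 12 transporters on that list were dim. Of 11 other genes of the folate, glycine and methionine cycles, only the mitochondrial serine carrier Sfxn1 fell (−0.94, SE 0.21, adjusted p = 0.0498), with a median of −0.55. Beside these lists, 3.35% of all tested genes fell at 8 h, with a median of −0.16.

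Of 31 genes of amino acid sensing upstream of mTORC1 1 was called lower, the Rag GTPase Rragd (−1.04, SE 0.22, adjusted p = 0.0411), a share near the 3.35% of all tested genes, and the median was −0.31. Rragd lay under the array median at 8 h. Of 19 genes of the unfolded protein response 3 fell, the cofactor Sdf2l1 (−1.20, SE 0.22, adjusted p = 0.0264), the factor Xbp1 (−1.12, SE 0.21, adjusted p = 0.0308) and the isomerase Pdia6 (−0.97, SE 0.21, adjusted p = 0.0469), with a median of −0.32. Of 9 other mitochondrial stress genes 3 fell, the chaperones Hspa9 (−1.14, SE 0.20, adjusted p = 0.0258) and Hspd1 (−0.97, SE 0.20, adjusted p = 0.0412) and the protease subunit Clpx (−1.10, SE 0.23, adjusted p = 0.0385), with a median of −0.70. Lonp1, not called at 8 h against baseline, was counted both here and among the other reported ATF4 targets. On these last 3 lists no gene rose at 8 h and none was called at 2 h.

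**Figure D4:**
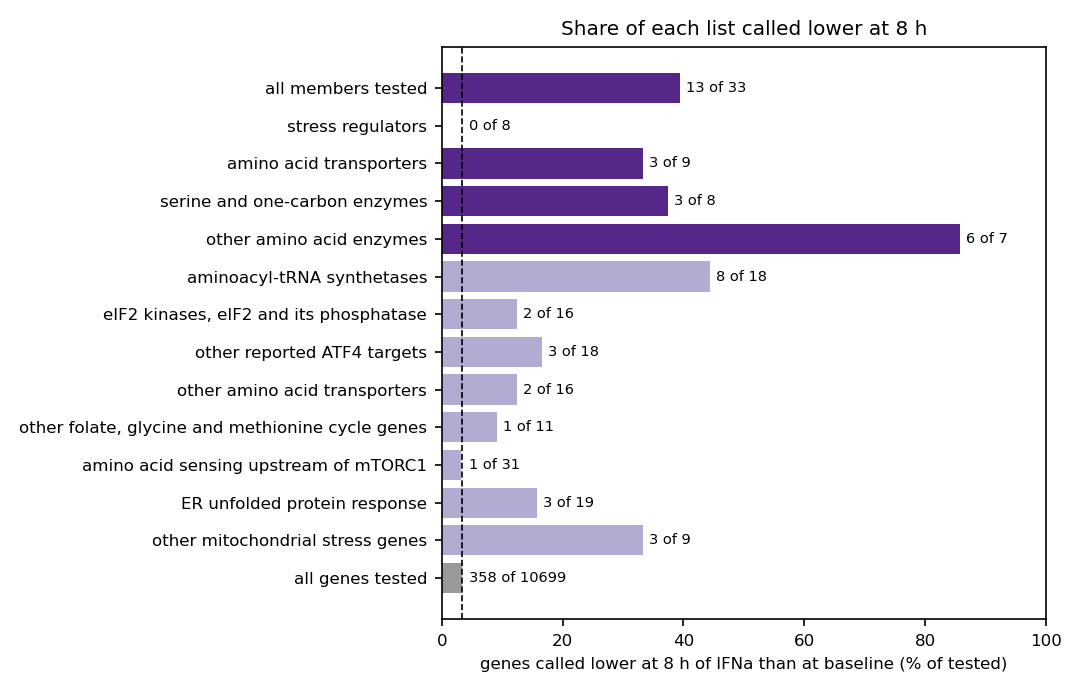
Share of the tested genes of each role (dark bars), of each related list (light bars) and of all tested genes (grey bar) that were called lower at 8 h of IFNa than at baseline, in percent, with counts beside the bars. The dashed line marks the 3.35% of all tested genes; stress regulators have 0 of 8, other amino acid enzymes 6 of 7 and aminoacyl-tRNA synthetases 8 of 18.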

How the data were processed

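The 4 RNA samples were each measured on an Affymetrix gene array. The deposited values are on a linear intensity scale; the submitters' processing notes name RMA (run in Affymetrix Power Tools), while versions and the set of arrays processed together are not given in the sources used here. Log2 of the intensity was taken with no pseudocount. RMA keeps some unspecific signal, so folds of dim genes can be understated. Of 24922 rows, 21425 had 1 gene symbol in the platform annotation; a gene with several rows was represented by its brightest. A gene was tested where it exceeded the median of all rows on 1 or more arrays (10699 of 19752).

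Groups were fitted with limma 3.58.1 in R 4.3.3 (a mean per group, empirical Bayes, 1 residual degree of freedom, prior 7.46, Benjamini-Hochberg over all genes tested, two-sided). The number of arrays limits the precision. The code was tested on simulated data. Listed genes were matched by symbol or RefSeq gene ID.

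The members and lists were chosen with earlier results of these data known. All 37 members are accounted for; related lists are represented by called genes with the largest change, or by values, and Wars and Eif2ak3 were named outside that rule after their values were seen. Alternatives covered normalization, filters, prior, pseudocount, rows, thresholds and single baseline arrays.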

Additional observations from a re-analysis of the deposited data

Results flagged for a closer look

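The 8 h array differed from the 2 h array (limma, adjusted p under 0.05) in 17 of the 33 genes, all lower at 8 h. Of all tested genes 10.8% were lower and 1.46% higher. IFNa and time in culture cannot be told apart in this difference. Given as the log2 difference of 8 h from 2 h, the transporters among them were Slc7a5 (−1.89), Slc7a6 (−1.54), Slc7a1 (−1.51), Slc1a4 (−1.30), Slc3a2 (−1.07) and Slc6a9 (−1.04). The serine and one-carbon enzymes were Shmt1 (−1.88), Mthfd1 (−1.56), Mthfd1l (−1.37) and Shmt2 (−1.12). The other amino acid enzymes were Asns (−1.93), Bcat1 (−1.63), Aldh18a1 (−1.63), Gpt2 (−1.62), Cth (−1.26) and Got1 (−1.17), and the only stress regulator was Atf4 (−0.99).

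A further 5 genes lay on opposite sides of both baseline arrays at the 2 times, although the difference between the times did not pass that test. Phgdh (−0.98), Cebpg (−0.84), Slc38a2 (−0.69) and Slc38a1 (−0.66) were above both baseline arrays at 2 h and below both at 8 h. Of all tested genes 28.6% had that order, whether or not the difference between the times passed. Ddit3 (0.63) was the 1 gene with the reverse order. Each time is 1 array.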

How the results depend on the processing

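At 8 h the 13 genes called lower became 20 after quantile normalization, 6 with no filter on dim rows and 0 when every row on the array entered the test. With a filter at the 60th percentile 9 of 29 were called lower. Shmt2, Mthfd1 and Got1 lost their calls both there and with no filter on dim rows. The 17 called lower at 8 h against 2 h became 9 with no filter and 0 with every row. Those kept with no filter were Slc7a1, Slc7a5, Slc7a6, Shmt1, Mthfd1, Asns, Aldh18a1, Gpt2 and Bcat1. Ddit3 made the 1 gene called higher at 8 h against 2 h after quantile normalization. The 12 genes at least 2-fold lower at 8 h became 7 after quantile normalization, and ranged from 8 to 16 without one baseline array. After quantile normalization 8.41% of all tested genes were lower at 8 h, where 3.35% were as deposited. The shares of all tested genes are not given here for the filters or for every row of the array. Nor are they given for the 2-fold count after quantile normalization, or for 8 h against 2 h under these alternatives. Those counts cannot be set against all genes. Medians at 8 h after quantile normalization were −0.64 for all 33 genes, −0.021 for stress regulators and −1.20 for other amino acid enzymes, and at 8 h against 2 h −0.63, −0.086 and −1.28. With centred arrays, other amino acid enzymes had medians of 0.20 at 2 h and −1.80 at 8 h against 2 h, where stress regulators had −0.47. Under the stricter filter at the 60th percentile, stress regulators had −0.28 at 8 h and −0.40 at 8 h against 2 h, and other amino acid enzymes 0.21 at 2 h. A pseudocount of 16 gave other amino acid enzymes −1.49 at 8 h against 2 h. Without one baseline array, medians at 2 h ranged from −0.017 to 0.15 for stress regulators and from −0.026 to 0.24 for other amino acid enzymes, and at 8 h from −0.27 to −0.16 for stress regulators, from −1.03 to −0.61 for transporters and from −1.40 to −1.07 for other amino acid enzymes. The cause of these shifts was not tested. No called difference of a single gene changed sign under the alternatives run. No paired analysis was possible because the labels name no pairing between the groups and each IFNa time has 1 array.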
